A study of Mus musculus with 18 samples.

Results

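The CXC chemokines are small secreted proteins that steer leukocytes through G protein-coupled receptors, and 8 of their genes were followed here through bone marrow-derived macrophages (BMDM) given oxidized low-density lipoprotein (oxLDL). The members were chosen by name from the 18668 gene symbols of the deposited table: Cxcl1, Cxcl2, Cxcl3, Cxcl9, Cxcl10, Cxcl11, Cxcl14 and Pf4. Earlier results of these data were known by then, so the members were not a blind choice to set against all genes. All 8 were in the table and all 8 passed the filter on low values, which left 12838 genes for testing. Cxcl9 passed through 4 libraries, all of them untreated, and Cxcl11 through 11 libraries, none of them at the high amount of oxLDL, so for these 2 genes a low value after oxLDL is partly built into the filter.

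The cells were macrophages grown from marrow of C57BL6 mice with M-CSF at 20 ng/ml. One genotype was Apoe-/- and the other the Apoe-/-/Treml4-/- double knockout (DKO), so that both were Apoe-/- by their labels and no wild-type cells were compared. Cells of each genotype were untreated (vehicle) or had oxLDL at 10 µg/ml or 60 µg/ml (oxLDL 10 and oxLDL 60) for 16 h by the series' description, while the study's text gives a longer time, a difference that was not resolved. Each of the 6 groups held 3 biological replicates. The age of the marrow donors is not given for these libraries, and the protocol text in the labels speaks of LPS in place of oxLDL, which was not resolved.

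CXC ligands fall into families by receptor. Cxcl1, Cxcl2 and Cxcl3 act on CXCR2 and draw neutrophils, and their genes are classical targets of NF-κB in activated macrophages. Cxcl9, Cxcl10 and Cxcl11 act on CXCR3, draw activated T cells and NK cells, and are induced by interferons. In C57BL/6 mice a frameshift is known to keep Cxcl11 from giving a working protein, so its transcript is read here as RNA only. Pf4 (CXCL4, platelet factor 4) is best known from platelet granules but is also made by macrophages, and Cxcl14 is a more constitutively made chemokine whose receptor is not settled. In atherosclerotic plaques macrophages loaded with oxLDL become foam cells, and chemokines of this class are among the signals that bring further leukocytes to the vessel wall.

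The 250 bases before the start site were read for 7 of the 8 members from RefSeq promoter sequences of build GRCm38.p6, the same reference as the mm10 build to which the reads were aligned. Of these 7 genes, 6 lie on chromosome 5 within 1576 kb, and Cxcl14 lies on chromosome 13. Pf4 starts 13.7 kb before Cxcl3 and Cxcl1 starts 12.7 kb before Cxcl2, while the start sites of Cxcl9 and Cxcl10 are 20.8 kb apart. The windows of the genes that fell together and carried a match are printed 5′ to 3′ on the strand of the gene, with capitals for matches to the NF-κB consensus or to the interferon-stimulated response element (ISRE, searched as GAAA, any 2 bases and GAAA), on either strand.
Cxcl1, chr5:90890995-90891244, plus strand: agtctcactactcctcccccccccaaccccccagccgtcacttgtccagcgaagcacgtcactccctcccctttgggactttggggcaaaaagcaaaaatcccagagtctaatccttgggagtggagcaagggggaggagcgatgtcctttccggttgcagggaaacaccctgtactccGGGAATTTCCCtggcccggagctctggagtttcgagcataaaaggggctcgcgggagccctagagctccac
Cxcl2, chr5:90903649-90903898, plus strand: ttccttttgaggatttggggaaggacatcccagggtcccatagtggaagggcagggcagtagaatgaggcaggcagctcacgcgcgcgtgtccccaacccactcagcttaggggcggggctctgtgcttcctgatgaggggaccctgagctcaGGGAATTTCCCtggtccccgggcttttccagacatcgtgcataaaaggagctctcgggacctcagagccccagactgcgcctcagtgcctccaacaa
Cxcl3, chr5:90785851-90786100, plus strand: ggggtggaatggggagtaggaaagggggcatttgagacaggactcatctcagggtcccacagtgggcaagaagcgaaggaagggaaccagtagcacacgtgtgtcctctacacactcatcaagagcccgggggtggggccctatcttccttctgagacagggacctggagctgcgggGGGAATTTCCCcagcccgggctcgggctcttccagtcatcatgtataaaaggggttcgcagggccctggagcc
Cxcl10, chr5:92348890-92349139, minus strand: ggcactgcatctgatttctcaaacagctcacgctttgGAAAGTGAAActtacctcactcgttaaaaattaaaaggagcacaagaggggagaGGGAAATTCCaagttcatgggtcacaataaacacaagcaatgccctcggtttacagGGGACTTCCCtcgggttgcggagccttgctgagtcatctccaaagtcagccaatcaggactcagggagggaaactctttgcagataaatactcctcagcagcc
The NF-κB consensus was matched in 4 of the 7 windows, against 3.9% of 32851 mouse promoter windows of the same length. Cxcl1, Cxcl2 and Cxcl3 held the same 11 bases, GGGAATTTCCC, which match on both strands and begin 71, 97 and 73 bases before the start. Cxcl10 held 2 different matches, beginning 159 and 103 bases before the start, and an ISRE match beginning 213 bases before it. An ISRE match was also present in the Cxcl14 window and was held by 2.98% of all windows. Neither motif was matched in the Cxcl9 or Pf4 windows. Such matches describe letters in these windows only.

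The low values moved in steps of 1 read, which put the depth of the libraries at 36.1 M to 49.3 M reads, and 3 reads over 1 kb of transcript correspond to 0.0609 to 0.083 RPKM. RPKM are reads scaled to library depth and transcript length, so levels can be set side by side between genes. Treml4 was between 1.86 and 8.39 RPKM in the Apoe-/- libraries and listed at 0 in 8 of the 9 DKO libraries. Some Apoe transcript was listed in every library, at 0.937 to 4.13 RPKM in Apoe-/- and 0.349 to 1.39 RPKM in DKO cells. What these Apoe reads are was not tested. All 8 macrophage markers exceeded a mean of 1 RPKM in every group, and T and NK cell markers summed to at most 0.839 RPKM. Of 8 neutrophil markers 7 exceeded a mean of 1 RPKM over all 18 libraries together, which was not taken group by group. They were led by S100a9 at 22.1 and S100a8 at 16.0 RPKM, and Elane averaged only 1.02 RPKM (0.578 to 1.51). Ly6g was at 0.0037 RPKM. Marker levels moved with oxLDL 60 beside the chemokines: by limma, Fcgr1 and Lyz2 were called lower in both genotypes (changes of -0.80 and -0.61 in Apoe-/- and -0.90 and -0.71 in DKO cells), Adgre1 lower in Apoe-/- cells (-0.50), Cd79b lower in DKO cells (-0.56), and Mertk (0.68 and 0.70) and the endothelial gene Vwf (0.996 and 1.003) higher in both. The part of these markers in the chemokine values was not tested. Xist exceeded 7 RPKM in 6 libraries, namely replicate 2 of Apoe-/- and replicate 3 of DKO at all 3 treatments, and was at most 0.069 RPKM in the other 12. Within each group the Y-linked gene Ddx3y ran from at most 0.0299 RPKM to at least 17.1 RPKM. Which libraries held the low Ddx3y values is not given here, and the sex of the donors was not assigned. In bulk RNA, fewer cells of a type and less RNA per cell cannot be told apart.

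Before oxLDL, Pf4 and Cxcl10 were the most abundant of the 8 transcripts in every library, and Cxcl9 was the lowest. In untreated Apoe-/- cells Pf4 averaged 154 ± 28 RPKM (SD, n = 3), Cxcl10 94.4 ± 24.7, Cxcl2 28.5 ± 6.6 and Cxcl3 12.6 ± 5.9. Cxcl14 averaged 6.39 ± 1.09 RPKM there, Cxcl1 4.48 ± 1.66, Cxcl11 0.517 ± 0.096 and Cxcl9 0.170 ± 0.081. The ranges of Cxcl14 and Cxcl1, 5.60 to 7.63 and 2.77 to 6.09 RPKM, overlapped, although Cxcl14 was above Cxcl1 within each of these libraries. The ranges of Cxcl3 and Cxcl2 did not overlap. The order of means was the same in untreated DKO cells. With oxLDL 60 Pf4 stayed first, Cxcl10 dropped below Cxcl2, Cxcl14 and Cxcl3 in both genotypes, and Cxcl11 fell below Cxcl9 in Apoe-/- cells.

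**Figure D1:**
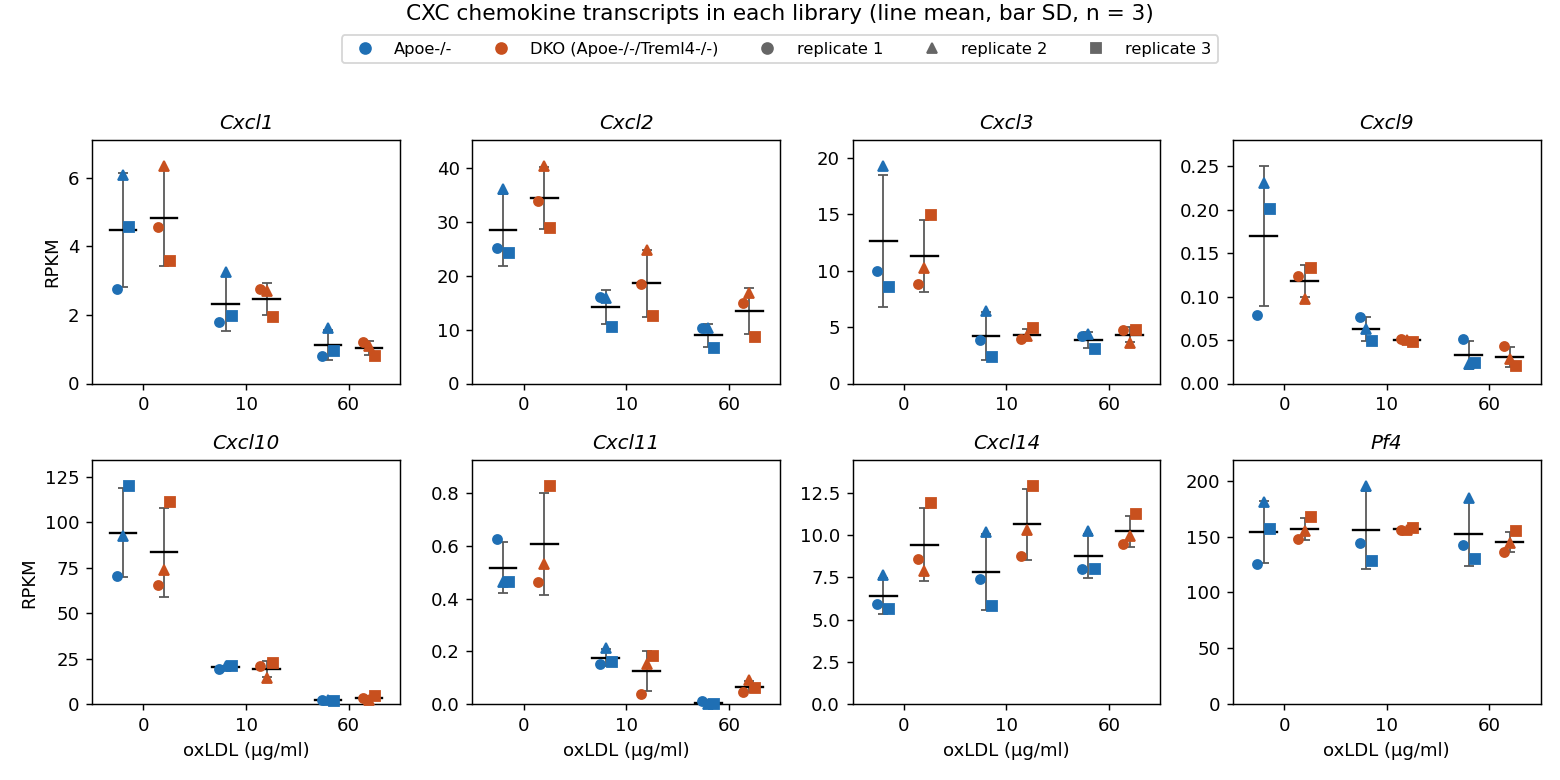
RPKM of each CXC chemokine gene (vertical axes, linear from 0) against oxLDL in µg/ml (0 is untreated) in Apoe-/- (blue) and DKO (orange) macrophages. Each point is 1 library with its shape giving the replicate, lines are means and bars SD (n = 3); the first 6 genes fall with oxLDL, while Cxcl14 and Pf4 stay near or above their untreated levels.

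To ask how the CXC chemokines respond to lipid loading, both oxLDL amounts were set against untreated cells of their own genotype. A gene was called when its limma adjusted p (Benjamini-Hochberg over all genes tested) was under 0.05 and its change at least 1.4-fold. All changes below are differences in log2(RPKM + 0.1), which understate the change of low genes. With oxLDL 60, the 6 members other than Cxcl14 and Pf4 were called lower in both genotypes. Of all genes tested, 13.9% were called in Apoe-/- cells in either direction and 6.78% were called lower, and in DKO cells 12.2% were called and 7.31% were called lower. Leaving aside Cxcl9 and Cxcl11, for which the filter matters, 4 of the 6 remaining members were called lower. With oxLDL 10, 4 of the 8 members were called lower in Apoe-/- cells, where 2.79% of all genes were called, and 3 of the 8 in DKO cells, where 2.26% were called. Of all genes 2.04% and 1.69% were called lower with oxLDL 10. In the libraries themselves, 6 members lay below untreated cells without overlap with oxLDL 60 in each genotype, as 14.9% of all genes did in Apoe-/- and 28.3% in DKO cells, and with oxLDL 10 this was so for 5 members in Apoe-/- (6.16% of all genes) and 6 in DKO cells (8.9%). These counts include Cxcl9 and Cxcl11, and the calls with oxLDL 10 include Cxcl11, so the filter matters there too. Leaving both aside, Cxcl1, Cxcl2, Cxcl3 and Cxcl10 did not overlap, except Cxcl1 in Apoe-/- cells with oxLDL 10. From oxLDL 10 to oxLDL 60, 3 members were called lower in Apoe-/- and 2 in DKO cells, where 3.54% and 3.74% of all genes were, and 4 in each did not overlap, as for 15.4% and 25.8% of all genes. Cxcl11 was among the Apoe-/- members in both of these counts, and Cxcl9 and Pf4 were among the DKO members that did not overlap. The oxLDL 10 and oxLDL 60 comparisons share their untreated libraries.

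Among the CXCR3 ligands, Cxcl10 (IP-10) changed most with oxLDL 60 on the log2(RPKM + 0.1) scale, whereas as a share of the untreated mean less was left of Cxcl11 in Apoe-/- cells (0.741% against 2.24%). Its RPKM in Apoe-/- replicates 1, 2 and 3 were 70.6, 92.8 and 120 untreated, 19.4, 20.9 and 20.8 after the low amount, and 2.30, 2.30 and 1.74 after the high amount. The DKO replicates held 65.4, 74.0 and 111 RPKM untreated, 21.1, 14.5 and 22.8 after the low amount, and 3.48, 2.40 and 4.34 after the high amount. The 3 treatments did not overlap in either genotype, so that every library with oxLDL 60 lay below every library with oxLDL 10 and each of these below every untreated one. Mean Cxcl10 with oxLDL 10 was 21.6% of the untreated mean in Apoe-/- and 23.3% in DKO cells, and with oxLDL 60 it was 2.24% and 4.08%. At the low amount the change was -2.17 (SE 0.23, limma adjusted p = 4.8e-05) in Apoe-/- and -2.08 (SE 0.23, limma adjusted p = 8.5e-05) in DKO cells. From oxLDL 10 to oxLDL 60 Cxcl10 fell again, with a change of -3.22 in Apoe-/- (SE 0.23, limma adjusted p = 1.85e-07) and of -2.49 in DKO cells (SE 0.23, limma adjusted p = 3.1e-06). For each replicate number taken as 1 animal, the level left with oxLDL 60 ran from 1.45% to 5.32% of the untreated library over the 6 animals.

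Cxcl11 also fell with oxLDL, from a far lower level. Untreated Apoe-/- libraries held 0.627, 0.461 and 0.463 RPKM, which were 44, 32 and 33 reads, and those with oxLDL 60 held 1, 0 and 0 reads. Untreated DKO libraries held 31, 42 and 55 reads of Cxcl11, those with oxLDL 10 held 3, 10 and 15, and those with oxLDL 60 held 3, 7 and 5. In both genotypes all libraries with oxLDL 60 lay below all untreated ones. Scaled for depth, the reads with oxLDL 60 were 0.00849 of the untreated ones in Apoe-/- cells (exact 95% interval 0.000213 to 0.0483, 1 read against 109) and 0.113 in DKO cells (0.0613 to 0.193, 15 reads against 128), where the intervals cover counting error only. On the fitted scale Cxcl11 was called lower with oxLDL 10 in both genotypes, at -1.16 in Apoe-/- (SE 0.24, limma adjusted p = 0.0085) and -1.68 in DKO cells (SE 0.24, limma adjusted p = 0.00074), and with oxLDL 60 at -2.56 and -2.06. With a pseudocount of 1 the Apoe-/- change at oxLDL 10 shrank to -0.37 and was under the 1.4-fold limit. Because Cxcl11 passed the filter through no library with oxLDL 60, its low values there are partly built into these calls.

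Cxcl9, the third CXCR3 ligand and a target of interferon-γ, was close to the limit of detection throughout. It had 10, 29 and 26 reads in the untreated Apoe-/- libraries, 10, 8 and 6 with oxLDL 10, and 8, 3 and 3 with oxLDL 60. DKO libraries had 15, 14 and 16 reads untreated, 7, 6 and 7 with oxLDL 10, and 5, 4 and 3 with oxLDL 60. Untreated and oxLDL 60 libraries did not overlap in RPKM in either genotype. With oxLDL 10 the Apoe-/- change of -0.69 was not called (SE 0.21, limma adjusted p = 0.0618), and without untreated replicate 1, whose 10 reads equalled those of an oxLDL 10 library, it was called (limma adjusted p = 0.00399). Cxcl9 was called lower with oxLDL 60 in Apoe-/- (-0.98, SE 0.21, limma adjusted p = 0.0018) and DKO cells (-0.74, SE 0.21, limma adjusted p = 0.016). Because Cxcl9 passed the filter only through 4 untreated libraries, a lower value after oxLDL is partly built into these calls. The DKO call was lost without untreated replicate 1 (-0.72, limma adjusted p = 0.051), without untreated replicate 3 (-0.69, limma adjusted p = 0.0562) or without oxLDL 60 replicate 3 (-0.68, limma adjusted p = 0.0565), and with a pseudocount of 1 neither genotype reached 1.4-fold.

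The CXCR2 ligands fell less steeply than Cxcl10. Cxcl2 (MIP-2) was the most abundant of the 3, at 25.1, 36.1 and 24.2 RPKM in untreated Apoe-/- libraries, 16.0, 15.9 and 10.5 with oxLDL 10, and 10.2, 10.2 and 6.52 with oxLDL 60. In DKO cells the libraries held 33.9, 40.4 and 28.8 RPKM untreated, 18.4, 24.8 and 12.5 with oxLDL 10, and 14.9, 16.7 and 8.53 with oxLDL 60. All treated libraries lay below all untreated ones of their genotype, while the 2 amounts of oxLDL overlapped in DKO cells and were separated in Apoe-/- cells only by 10.5 against 10.2 RPKM. With oxLDL 60 the change was -1.66 in Apoe-/- (SE 0.28, limma adjusted p = 0.000195) and -1.40 in DKO cells (SE 0.28, limma adjusted p = 0.0011). With oxLDL 10 it was -1.01 in Apoe-/- (SE 0.28, limma adjusted p = 0.037) and -0.93 in DKO cells, which was not called (SE 0.28, limma adjusted p = 0.079). Over 14 alternatives the Apoe-/- adjusted p ran from 1.9e-05 to 0.147. The Apoe-/- call was lost without untreated replicate 1 (limma adjusted p = 0.062) or 2 (0.147) and without oxLDL 10 replicate 1 (0.064) or 3 (0.136).

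Cxcl1 (KC), which like Cxcl2 signals through CXCR2, fell stepwise. Apoe-/- libraries held 2.77, 6.09 and 4.57 RPKM untreated, 1.79, 3.25 and 1.96 with oxLDL 10, and 0.797, 1.61 and 0.961 with oxLDL 60. DKO libraries held 4.56, 6.36 and 3.58 RPKM, then 2.76, 2.69 and 1.93, then 1.22, 1.10 and 0.803. Each step was complete in DKO cells, and in Apoe-/- cells untreated replicate 1 lay below oxLDL 10 replicate 2. With oxLDL 60 Cxcl1 was called lower in Apoe-/- (-1.89, SE 0.30, limma adjusted p = 0.00013) and DKO cells (-2.09, SE 0.30, limma adjusted p = 5.1e-05). With oxLDL 10 the changes of -0.89 and -0.92 were not called (limma adjusted p = 0.088 and 0.117), although the Apoe-/- change was called without untreated replicate 1 (limma adjusted p = 0.0316) or oxLDL 10 replicate 2 (limma adjusted p = 0.0413). From oxLDL 10 to oxLDL 60 Cxcl1 was called lower in both genotypes, at -0.999 (SE 0.30, limma adjusted p = 0.0355) and -1.17 (SE 0.30, limma adjusted p = 0.014). Without the libraries named next that step was not called: in Apoe-/- cells oxLDL 10 replicate 2 (limma adjusted p = 0.144) or 3 (0.057) and oxLDL 60 replicate 1 (0.148) or 3 (0.113), and in DKO cells oxLDL 10 replicate 1 (0.059) or 2 (0.051) and oxLDL 60 replicate 3 (0.063).

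Cxcl3, the third CXCR2 ligand here, reached its low level at oxLDL 10 and stayed there. Apoe-/- libraries held 9.93, 19.3 and 8.55 RPKM untreated, 3.84, 6.46 and 2.31 with oxLDL 10, and 4.22, 4.36 and 3.03 with oxLDL 60. DKO libraries held 8.81, 10.2 and 14.9 RPKM, then 3.94, 4.18 and 4.91, then 4.75, 3.58 and 4.71. Untreated libraries lay above all treated ones in both genotypes and the 2 amounts of oxLDL overlapped. The change at oxLDL 10 was -1.59 in Apoe-/- (SE 0.32, limma adjusted p = 0.0059) and -1.33 in DKO cells (SE 0.32, limma adjusted p = 0.022), and at oxLDL 60 it was -1.60 and -1.34. Between the amounts the difference was -0.02 in Apoe-/- cells (95% interval -0.69 to 0.66) and 0.00 in DKO cells (-0.67 to 0.67). The DKO call at oxLDL 10 was lost without untreated replicate 3 (limma adjusted p = 0.135), oxLDL 10 replicate 1 (0.096) or oxLDL 10 replicate 2 (0.090). Cxcl1, Cxcl2 and Cxcl3 are close paralogs, and how the authors' counting shared out reads that match more than 1 of them is not given in the sources used here.

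Libraries with the same number within a genotype deviated together, and with the animal as a block several changes at oxLDL 10 passed the limits. In that fit Cxcl1 was called lower with oxLDL 10 in Apoe-/- (limma adjusted p = 6.9e-05) and DKO cells (6.4e-05), Cxcl2 also in DKO cells (5.2e-05) and Cxcl9 in Apoe-/- cells (0.048). Cxcl2 was further called lower from oxLDL 10 to oxLDL 60 in Apoe-/- cells (-0.65, limma adjusted p = 0.00044, against 0.143 without the block). The count of members called at oxLDL 10 was then 6 in Apoe-/- and 5 in DKO cells, and at oxLDL 60 it was 6 in both. The share of all genes called in this fit is not given here, so the rise was not set against that of all genes. Over all alternatives the count of all genes called reached 904 in Apoe-/- and 510 in DKO cells at oxLDL 10, where the main fit called 358 and 290. At oxLDL 60 it reached 3873 and 3319, where the main fit called 1786 and 1564. Which alternative gave these largest counts is not given here, so they are no background for the fit with the animal as a block. Per animal, Cxcl1 with oxLDL 10 was at 42.3% to 64.6% of its untreated library and Cxcl2 at 43.2% to 64%. The 6 animals all moved down in both genes.

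**Figure D2:**
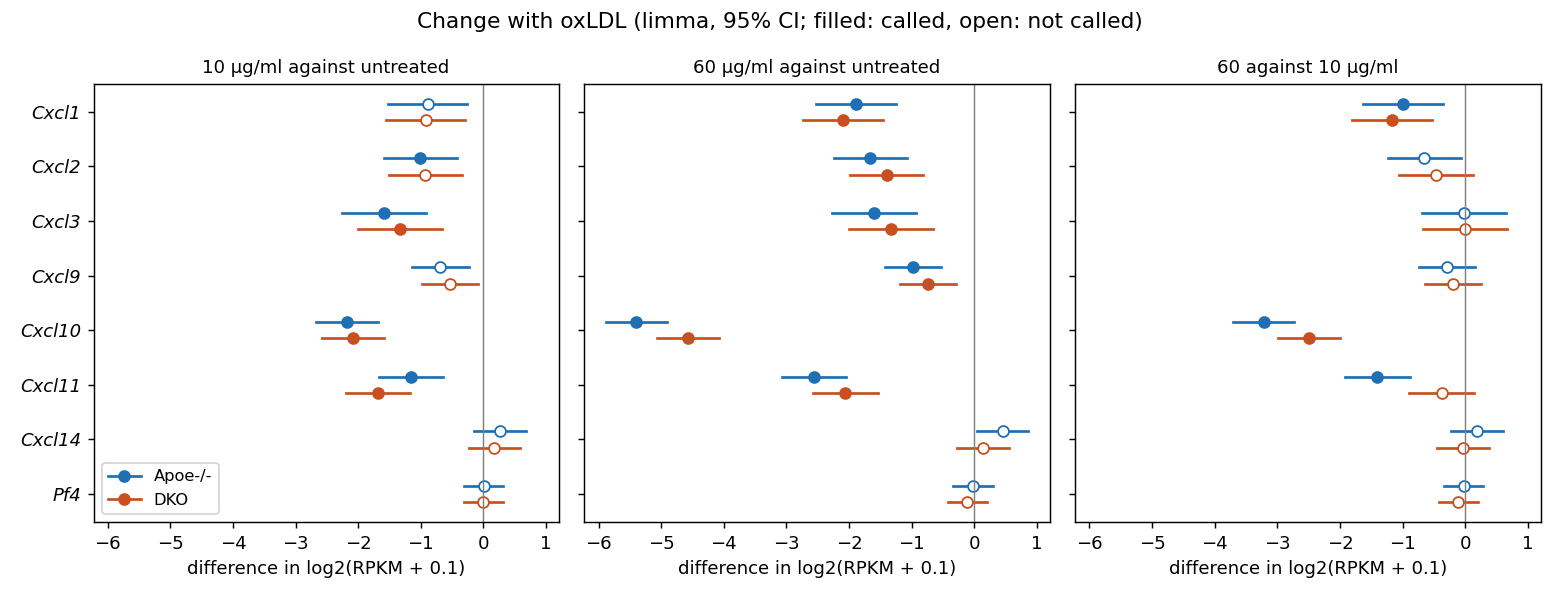
Change of each member with oxLDL as a difference in log2(RPKM + 0.1) from limma (horizontal axes), for 10 µg/ml and 60 µg/ml against untreated and for 60 against 10 µg/ml, in Apoe-/- (blue) and DKO (orange) macrophages (n = 3 per group). Points are estimates, lines 95% confidence intervals and filled points are called; Cxcl10 lies furthest left in each panel, from -5.39 to -2.08, and Cxcl3 moves in the panels against untreated cells but not between the amounts.

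Pf4 and Cxcl14 did not follow the other 6. Pf4 stood at 126, 181 and 157 RPKM in untreated Apoe-/- libraries, 144, 195 and 128 with oxLDL 10, and 142, 185 and 130 with oxLDL 60. DKO libraries held 148, 155 and 168 RPKM untreated, 156, 156 and 157 with oxLDL 10, and 136, 144 and 155 with oxLDL 60. Treated and untreated libraries overlapped in both genotypes, and the amounts of oxLDL overlapped in Apoe-/- cells. In DKO cells all libraries with oxLDL 60 lay below all with oxLDL 10, as was the case for 25.8% of all genes tested. That difference was -0.11 and was not called (limma adjusted p = 0.676). The change with oxLDL 60 was -0.02 in Apoe-/- cells (95% interval -0.33 to 0.29) and -0.11 in DKO cells (-0.42 to 0.20), and neither was called (limma adjusted p = 0.936 and 0.642). Markers of megakaryocytes and platelets were near 0 beside it: the 8 genes summed to between 1.38 and 3.21 RPKM per library, of which Ppbp, the neighbouring platelet chemokine, gave 0.740 to 2.22 RPKM.

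Cxcl14 was at or above its untreated level. Apoe-/- libraries held 5.95, 7.63 and 5.60 RPKM untreated, 7.41, 10.2 and 5.81 with oxLDL 10, and 8.01, 10.2 and 8.01 with oxLDL 60. DKO libraries held 8.56, 7.86 and 11.9 RPKM untreated, 8.74, 10.3 and 12.9 with oxLDL 10, and 9.46, 9.94 and 11.3 with oxLDL 60. In Apoe-/- cells all libraries with oxLDL 60 lay above all untreated ones, as was the case for 25.8% of all genes tested, while in DKO cells they overlapped. The change at oxLDL 60 was 0.45 in Apoe-/- cells (SE 0.20, limma adjusted p = 0.095) and 0.13 in DKO cells (SE 0.20, limma adjusted p = 0.677), and neither was called. The difference between these changes was -0.32 (95% interval -0.90 to 0.27).

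The make-up of the summed CXC transcripts differed between treatments. The 8 members summed to 301.5 ± 54.0 RPKM in untreated Apoe-/- cells and 177.1 ± 32.5 with oxLDL 60, and to 300.9 ± 35.2 and 177.5 ± 6.9 in DKO cells (SD, n = 3). The 3 CXCR3 ligands made up 31.5% ± 5.4 of that sum in untreated Apoe-/- cells and 1.22% ± 0.17 with oxLDL 60, and 27.7% ± 4.7 and 1.97% ± 0.50 in DKO cells. The CXCR2 ligands went from 15.1% ± 3.2 to 7.89% ± 1.08 in Apoe-/- and from 17.0% ± 2.7 to 10.6% ± 2.6 in DKO cells. Pf4 alone went from 51.3% ± 2.0 to 85.9% ± 1.0 and from 52.3% ± 2.7 to 81.7% ± 2.0. The ratio of Cxcl10 to Cxcl2, a CXCR3 ligand against a CXCR2 ligand, was 2.57 to 4.95 in untreated Apoe-/- libraries and 0.225 to 0.267 with oxLDL 60. In DKO libraries it was 1.83 to 3.86 and 0.144 to 0.508.

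**Figure D3:**
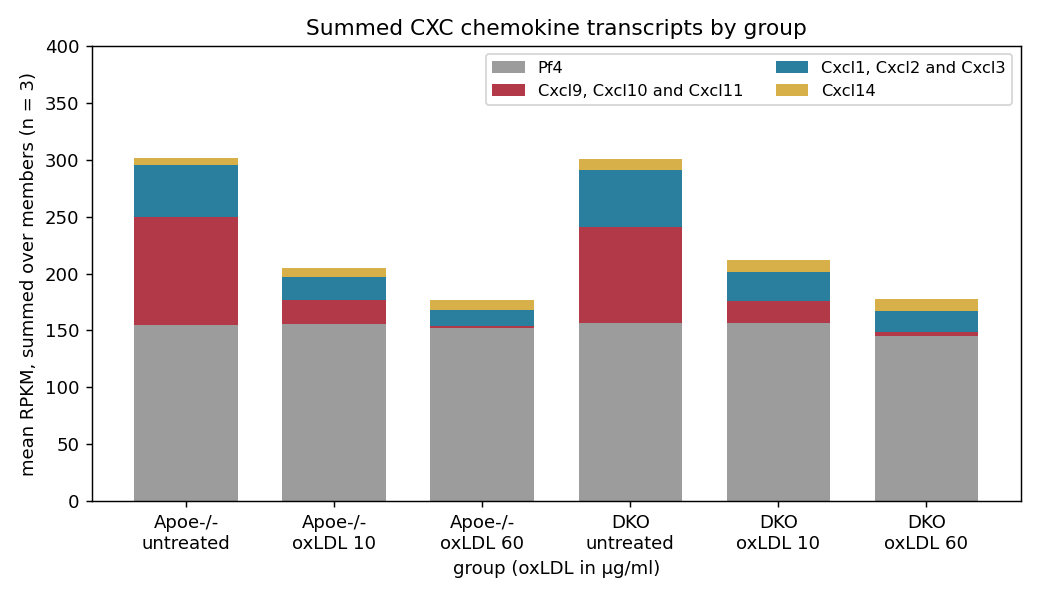
Mean RPKM (n = 3) of the 8 members stacked by receptor family for each of the 6 groups (horizontal axis), with Pf4 in grey, the CXCR3 ligands in red, the CXCR2 ligands in blue and Cxcl14 in yellow; no error bars are drawn. The sum goes from 301.5 to 177.1 RPKM in Apoe-/- and from 300.9 to 177.5 RPKM in DKO macrophages, and the red band narrows to 2.15 and 3.50 RPKM with oxLDL 60 while the grey band stays between 145 and 157.

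To ask whether Treml4 bears on these genes, DKO were compared with Apoe-/- cells at each treatment, and no member was called at any of the 3. Among all genes tested 0.21% were called when untreated, 0.0857% with oxLDL 10 and 0.125% with oxLDL 60. In untreated cells the differences of 7 members lay between -0.26 (Cxcl9) and 0.28 (Cxcl2), with 95% intervals that together spanned -0.77 to 0.87, and with oxLDL 10 between -0.35 (Cxcl11) and 0.36 (Cxcl2). Cxcl14 was the exception at 0.54 in untreated (SE 0.20, limma adjusted p = 0.185) and 0.46 in oxLDL 10 cells (SE 0.20, limma adjusted p = 0.488). All 3 untreated DKO libraries, at 7.86 to 11.9 RPKM, lay above all 3 Apoe-/- ones, at 5.60 to 7.63 RPKM, and 18.3% of all genes tested were separated in that direction.

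The Cxcl14 call depended on how the Xist-positive animals were handled. With a term for those libraries Cxcl14 was called higher in untreated DKO cells (0.54, SE 0.09, limma adjusted p = 0.0033), and without them it was called in untreated (0.50, limma adjusted p = 0.025) and oxLDL 10 cells (0.52, limma adjusted p = 0.046). Over 14 alternatives its adjusted p ran from 0.0033 to 0.443 in untreated and from 0.025 to 0.967 in oxLDL 10 cells. Within each genotype the Xist-positive replicate had the highest Cxcl14 in all 3 treatments, and likewise the highest Pf4. The 5 fibroblast markers moved with it in the other direction, since they summed to 0.552 to 0.864 RPKM in the Xist-positive Apoe-/- libraries and to 6.96 to 13.4 RPKM in the others, and to 0.781 to 1.16 against 3.22 to 5.06 RPKM in DKO cells. Their part in the Cxcl14 values was not tested.

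With oxLDL 60 the genotypes were separated for Cxcl10 and Cxcl11, which were higher in all 3 DKO than in all 3 Apoe-/- libraries, as 4.49% of all genes tested were. The Cxcl10 libraries came close, at 2.40 RPKM for the lowest DKO and 2.30 RPKM for the highest Apoe-/- library. The difference was 0.64 for Cxcl10 (95% interval 0.14 to 1.13, limma adjusted p = 0.540) and 0.68 for Cxcl11 (0.16 to 1.19, limma adjusted p = 0.534). For Cxcl11 this compares 15 reads with 1 read, a depth-scaled ratio of 15.5 (exact 95% interval 2.38 to 652, counting error only). Cxcl2 differed by 0.54 (-0.04 to 1.13, limma adjusted p = 0.650). The 8 neutrophil markers summed to 33.9 to 61.3 RPKM in DKO and 31.4 to 44.0 RPKM in Apoe-/- libraries with oxLDL 60, and their part in these differences was not tested.

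The interaction of genotype and oxLDL gave no call among the members. For oxLDL 60 the fall of Cxcl10 was 0.82 smaller in DKO than in Apoe-/- cells on the log2 scale (SE 0.33, 95% interval 0.12 to 1.51, limma adjusted p = 0.507), and that of Cxcl11 was 0.50 smaller (SE 0.34, limma adjusted p = 0.612). Among all genes tested 0.0156% were called. For oxLDL 10 limma called 0 genes (0%), with 246 genes at an unadjusted p under 0.05, and the member furthest from 0 was Cxcl11 at -0.53 (SE 0.34, limma adjusted p = 1.00). Cxcl11 was called lower from oxLDL 10 to oxLDL 60 in Apoe-/- cells (-1.41, SE 0.24, limma adjusted p = 0.00075) and not in DKO cells (-0.38, SE 0.24, limma adjusted p = 0.330), a step in which 6.46% and 5.66% of all genes were called, and the difference between these steps was not tested by itself.

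**Figure D4:**
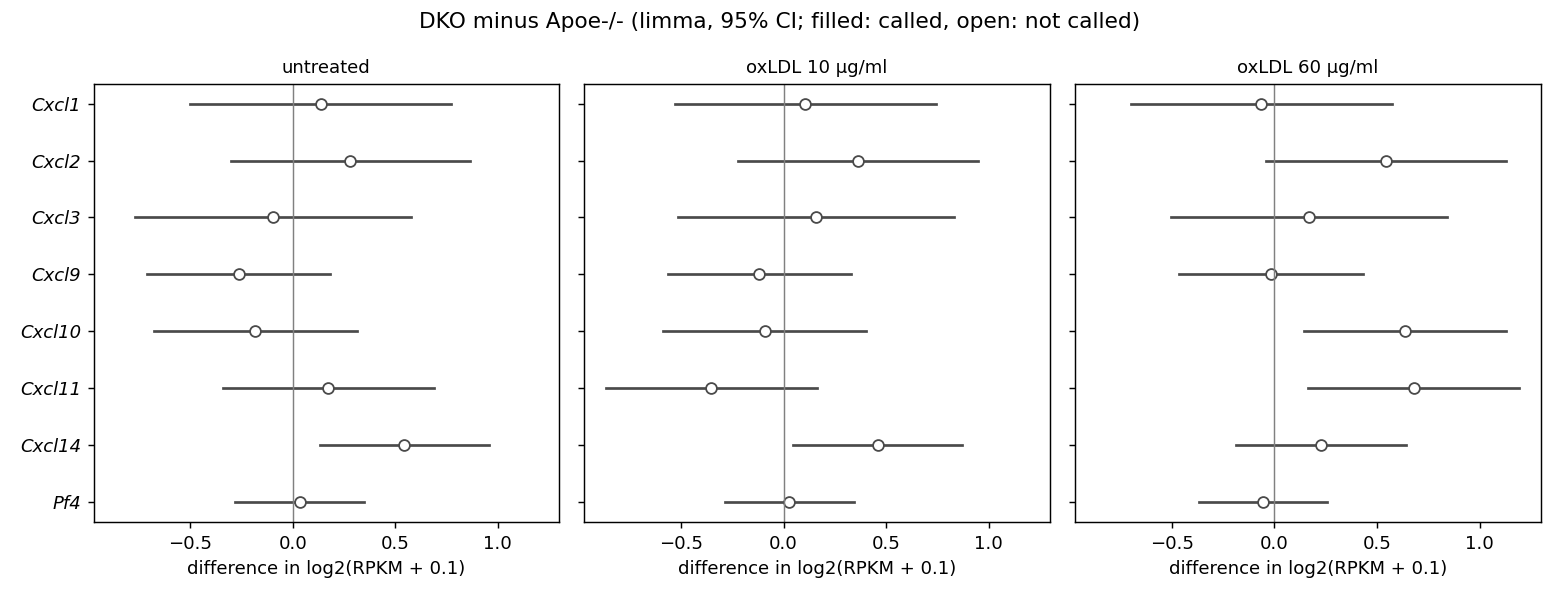
Difference of DKO minus Apoe-/- macrophages for each member as a difference in log2(RPKM + 0.1) from limma (horizontal axes), in untreated cells and with oxLDL at 10 and 60 µg/ml (n = 3 per group). Points are estimates and lines 95% confidence intervals; all points are open because none was called, and the intervals that exclude 0 are those of Cxcl14 at 0.54 and 0.46 in the first 2 panels and of Cxcl10 at 0.64 and Cxcl11 at 0.68 in the third.

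Other ligands and the receptors were read from lists. Of 8 further CXC and CX3C ligand genes 6 were in the table and 4 were tested. Cxcl16, a transmembrane chemokine that also binds oxidized lipoprotein, was lower with oxLDL 60 in both genotypes, going from 228 ± 31 to 105 ± 5 RPKM in Apoe-/- cells, a change of -1.11 (SE 0.10, limma adjusted p = 1.82e-07), while DKO cells went from 237 ± 16 to 104 ± 5 RPKM, a change of -1.19 (SE 0.10, limma adjusted p = 9.46e-08). Cx3cl1 (fractalkine) was lower with both amounts, at -1.71 and -1.81 with oxLDL 60. Ppbp and Cxcl12 were not called. Of 9 receptor genes 5 were tested, and Cx3cr1, the fractalkine receptor, was called lower with oxLDL 60 in Apoe-/- (-2.54, SE 0.24, limma adjusted p = 4.3e-07) and DKO cells (-2.68, SE 0.24, limma adjusted p = 2.6e-07). Cxcr3, the receptor of the Cxcl10 family, averaged 1.08 ± 0.10 RPKM in untreated Apoe-/- cells and was called lower with oxLDL 60 there (-0.67, SE 0.15, limma adjusted p = 0.0025) and not called in DKO cells. Cxcr2, the receptor of Cxcl1 to Cxcl3, was between 0.00772 and 0.133 RPKM.

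Genes of the NF-κB and interferon pathways were read in the same way, from lists chosen with earlier results of these data known. Of 19 genes for NF-κB inputs, subunits and feedback, 16 were called lower with oxLDL 60 in Apoe-/- and 15 in DKO cells, 9 in each with oxLDL 10, and none higher, where 6.78% and 7.31% of all genes were called lower with oxLDL 60 and 2.04% and 1.69% with oxLDL 10. Their median change with oxLDL 60 was -1.07 in each genotype, beside 0.06 and -0.06 over all genes tested. Il6 is in each of these counts of genes called lower. It reached the 0.1 RPKM of the filter in every untreated library. No library with oxLDL 60 and no Apoe-/- library with oxLDL 10 reached that limit for Il6. Its low values there are therefore partly built into the filter, as for Cxcl9 and Cxcl11. The change in Apoe-/- and DKO cells was -3.81 and -3.99 for Il1b and -1.72 and -1.73 for Tlr2, and Nfkbiz, the co-activator IκBζ, changed by -2.09 in Apoe-/- cells. Of 18 interferon genes 16 were tested and 11 were called lower with oxLDL 60 in each genotype, 6 in each with oxLDL 10, beside the same shares of all genes, and their medians with oxLDL 60 were -0.74 and -0.79. Usp18, a brake on type I interferon signalling that interferon itself induces, changed by -2.72 and -2.70, and Irf1 by -1.87 and -1.71. The ligand genes Ifnb1 and Ifng did not pass the filter. No gene of either list was called between genotypes or in the interactions.

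Of 9 genes for chemokine-cutting proteases and glycosaminoglycan carriers 8 were tested. Mmp14, a membrane metalloproteinase, fell from 38.8 ± 8.6 to 1.92 ± 0.30 RPKM with oxLDL 60 in Apoe-/- cells (-4.25, SE 0.21, limma adjusted p = 3.48e-10), and in DKO cells from 32.3 ± 6.1 to 1.69 ± 0.38 RPKM (-4.18, SE 0.21, limma adjusted p = 5.4e-10). Mmp9 and the syndecan gene Sdc4 were also called lower. Mmp12 (macrophage elastase), which trims CXC chemokines, was called higher, at 1.56 in Apoe-/- (SE 0.51, limma adjusted p = 0.0275) and 1.47 in DKO cells (SE 0.51, limma adjusted p = 0.0415).

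Across the 18 libraries the genes most like each member by Pearson correlation of log2(RPKM + 0.1), among 10101 genes with a mean of at least 1 RPKM, were listed as a description. Cxcl10 was followed most closely by Ifit3b (r = 0.992), Rsad2 (r = 0.990) and Ptger4 (r = 0.989). Cxcl1 was closest to Casp4, Batf2 and Mefv (r = 0.955 to 0.956), Cxcl2 to Plek (r = 0.946) and Cxcl3 to Rnf19b and Bcl3 (r = 0.907 and 0.901). Pf4 was closest to Fam32a (r = 0.906), Folr2 (r = 0.898) and Cd74 (r = 0.885), and Cxcl14 to Cd59a (r = 0.832). Within the family Cxcl10 and Cxcl11 gave r = 0.927, Cxcl1 and Cxcl10 r = 0.900, and Cxcl10 and Pf4 r = 0.204. The libraries share animals and treatments, and most of the spread of the first 6 members lies between treatments.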

How the data were processed

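Total RNA of 18 mouse BMDM cultures was sequenced (2 genotypes, 3 treatments, 3 replicates per group). The authors aligned reads with STAR to mm10, per the labels and submitters' processing notes, and deposited 1 table of RPKM for 18668 symbols. The counter settings and annotation are not given in the sources used here. The labels name more than 1 sequencer and read length. Members and gene lists were chosen with earlier results of these data known.

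Values were analysed as log2(RPKM + 0.1). The 12838 genes that reached 0.1 RPKM in 3 or more libraries were tested. A single limma 3.58.1 model (R 4.3.3) held 6 group means over the 18 libraries (lmFit, contrasts, trended eBayes), with Benjamini-Hochberg adjustment over all genes within each of 11 comparisons. Calls needed an adjusted p under 0.05 and a 1.4-fold change, the limits of the study. DESeq2, which the authors used, needs counts. An exact two-sided permutation test of 3 against 3, run for each member, cannot go below p = 0.10 and decided no call. The code was tested on simulated data.

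Reads were recovered from the steps in low RPKM values, of which 91.5% of 20281 were within 0.05 of a whole number (10% by chance), with GENCODE M21 lengths for 97.3% of symbols. For Cxcl9 and Cxcl11 the length came from the steps of the gene itself. It was 3194 bases for Cxcl9 and 1764 bases for Cxcl11, where GENCODE gives 3016 and 3794. Intervals and limits cover counting error only. The absolute depth is approximate. Nothing says which libraries share an animal. Same-numbered libraries of a genotype (18 pairs) deviated together from their group means (r 0.183 to 0.694, median 0.405), so the number was taken as the animal there. The median of -0.347 for other numbers is no separate baseline. Deviations from a mean of 3 libraries sum to 0, so a positive value for same numbers makes the others negative. Between genotypes the median was -0.168. The named genes were all 8 members, called list genes (up to 4 per list, by fold, plus receptors named for their ligands, chosen after their values were seen) and the 3 most correlated genes. Alternatives were a pseudocount of 1, no filter, median-ratio scaling, no fold limit, fits of the compared groups alone, the replicate block, a term for or removal of Xist-positive libraries, and each library left out in turn. Python 3.11.15 with scipy 1.17.1, pandas 2.3.3, numpy 2.4.6 and matplotlib 3.10.9 was used. RefSeq promoter windows matched 7 of 8 members.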

Additional observations from a re-analysis of the deposited data

How the results depend on the processing

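At oxLDL 60 all 6 members were called lower in both genotypes under no filter, median-ratio scaling, no limit on the fold, the replicate block and the Xist term. 5 were called with a pseudocount of 1, with only the compared groups and without the Xist-positive libraries, the last 2 because Cxcl9 no longer passed the filter and gave no value. Leaving out 1 library at a time gave 6 in Apoe-/- and 5 to 6 in DKO cells. At oxLDL 10 the DKO count went from 3 to 5 with the replicate block and to 5 without the Xist-positive libraries, and from 2 to 3 with 1 library left out (3 to 5 in Apoe-/- cells). From oxLDL 10 to oxLDL 60 the Apoe-/- count went from 3 to 1 with a pseudocount of 1 and was 2 to 3 with 1 library left out, and the DKO count was 1 to 2. For the genotype comparison 1 member, Cxcl14, was called in untreated cells with the Xist term and without the Xist-positive libraries, and 1 at oxLDL 10 without those libraries. All other alternatives gave 0 for the genotype comparisons and for both interactions. With no filter the oxLDL 10 calls of Cxcl2 in Apoe-/- (limma adjusted p = 0.0831) and Cxcl3 in DKO cells (0.068) were lost. The Cxcl1 step from oxLDL 10 to oxLDL 60 in Apoe-/- cells was lost with a pseudocount of 1 (0.0697), no filter (0.082) and only the compared groups (0.0634). The causes were not tested.

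The near-zero Cxcl3 difference between the amounts turned positive in Apoe-/- cells without the Xist-positive libraries (0.26) and ranged from -0.37 to 0.35 with 1 library left out. In DKO cells it turned positive with median-ratio scaling (0.077) and without the Xist-positive libraries (0.023) and ranged from -0.072 to 0.13 with 1 library left out. Pf4 at oxLDL 60 in Apoe-/- cells ranged from -0.17 to 0.10 with 1 library left out. The replicate block for genotype comparisons uses a number that did not pair libraries between genotypes, and it changed no call there. Median-ratio scaling moved the median of all genes by 0.12 in the oxLDL 60 interaction and by less than 0.1 elsewhere. Over the alternatives the count of all genes called ran, in Apoe-/- and DKO cells, from 253 to 904 and 185 to 510 at oxLDL 10, from 1225 to 3873 and 1087 to 3319 at oxLDL 60, and from 579 to 1731 and 498 to 2000 between the amounts. Between genotypes it ran from 12 to 309 untreated, 4 to 108 at oxLDL 10 and 5 to 75 at oxLDL 60, and for the interactions from 0 to 1 and 0 to 5. Depth limits Cxcl9 and Cxcl11, which had under 60 reads in every library. The other 6 members were at 0.797 RPKM or more. Their reads were not recovered from steps, and GENCODE lengths can differ from those the authors used, so no read limit is given for them.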

Other observations

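For some genes single animals kept their place across treatments. In all 3 treatments Apoe-/- replicate 2 had the highest Cxcl1 and Cxcl3 and replicate 3 the lowest Cxcl2, and in DKO cells replicate 3 had the highest Cxcl10 and the lowest Cxcl1 and Cxcl2. Other genes did not keep it: Apoe-/- replicate 3 had the highest Cxcl10 untreated and the lowest with oxLDL 60. Such order is a description of 3 animals per genotype, and 2 of these are the Xist-positive animals, so that single animals and Xist status cannot be told apart.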
